A study of Mus musculus with 4 samples.

Results

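The transcripts of 10 Krüppel-like factor genes, Klf2, Klf3, Klf4, Klf6, Klf7, Klf9, Klf10, Klf11, Klf13 and Klf16, were followed in mouse leukemia stem cells with and without B7-H4. They were taken by name from the 27179 genes of the expression table, by their Entrez gene IDs. The study sequenced RNA from 4 samples of acute myeloid leukemia cells of the bone marrow, all from the C57BL/6 strain and all sorted for a yellow fluorescent protein, the myeloid integrin Mac-1 and the stem cell factor receptor c-Kit. The 2 groups were wild type (n = 2) and B7-H4-null (n = 2), where B7-H4, encoded by Vtcn1, is a surface protein that restrains T cells. The comparison asked which genes differ between the genotypes. The sources used here do not give the leukemia driver, the age of the mice or the way B7-H4 was removed. They do not say either that each library came from its own animal, and p-values then measure the spread between these 4 libraries, which may be technical.

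Krüppel-like factors bind GC-rich and CACCC-type sequences through a run of zinc fingers at the carboxyl end. Their amino-terminal parts differ. Klf2, Klf4, Klf6 and Klf7 mostly activate transcription with the help of acetyltransferases, Klf3 represses through the CtBP corepressors, and Klf9, Klf10, Klf11, Klf13 and Klf16 recruit the Sin3 corepressor. In blood cells Klf2 is known for keeping lymphocytes and monocytes quiescent, and Klf4 for driving monocyte differentiation.

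The libraries rested on 9419425 to 10814448 reads. Vtcn1 itself had 0 reads in both wild-type libraries, which allows up to 3, and 1 read in each B7-H4-null library, so the genotype labels could not be checked by it. All 10 genes were read in every library, with 23 to 10120 reads, and all 10 were among the 12107 genes tested, those with at least 1 RPKM (read counts divided by the length of the gene and the depth of the library) in at least 2 libraries. Of the sort markers, Itgam and Itgb2, the chains of Mac-1, and Kit, which encodes c-Kit, were read in every library. Itgam (114 and 86.9 against 82.9 and 59.9 RPKM) and Itgb2 (213 and 213 against 123 and 146 RPKM) were lower without overlap in B7-H4-null, and Kit overlapped, at 24.0 and 7.19 against 11.0 and 9.37 RPKM. None of these markers passed (limma adjusted p = 0.556, 0.371 and 0.808). At an unadjusted p under 0.05, 1 was lower by limma and by voom, beside 7.2% and 7.99% of all tested genes. Of all tested genes, 28.0% were lower without overlap. B7-H4-null replicate 1 stood apart in the summed level of 25 immediate early genes, which respond within minutes to signals. The sum there was 15804 RPKM, against 7037 RPKM in B7-H4-null replicate 2 and 3243 and 4001 RPKM in wild type. Not every gene of the list was highest there, as Socs3 stood at 1.83 RPKM, against 24.5 RPKM in B7-H4-null replicate 2. Differences below are given also without B7-H4-null replicate 1 where leaving it out moved them by over 1.5 times or turned their sign.

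Klf2, Klf4, Klf6 and Klf16 were higher and Klf7 and Klf13 lower in both null libraries, but the spread between the 2 libraries of a group was often wide. Of the 10 genes, 0 passed the test between genotypes (limma on log2(RPKM + 1), Benjamini-Hochberg adjusted p under 0.05 over all tested genes), where 12 of all tested genes passed, 0.0991%, 5 higher (0.0413%) and 7 lower (0.0578%). With voom on the recovered reads 0 members passed as well, where 0.132% of all tested genes did. At an unadjusted p under 0.05 voom counted 3 members higher and 1 lower, where 4.7% of all tested genes were higher and 7.99% lower. By limma the count at that level was likewise 3 members higher (Klf2, Klf4 and Klf6) and 1 lower (Klf13), where 5.05% of all tested genes were higher and 7.2% lower. The 2 libraries of each genotype did not overlap for 4 members in the higher direction (Klf2, Klf4, Klf6 and Klf16) and for 2 in the lower (Klf7 and Klf13). Over all tested genes these shares were 16.0% and 28.0%, so members lower without overlap were no more frequent than such genes among all tested. After median-ratio scaling of the libraries the shares over all genes were 6.52% and 5.35% at an unadjusted p under 0.05, and 22.0% and 22.3% without overlap. The members then counted 4 higher, Klf16 among them, and 1 lower at an unadjusted p under 0.05, and 4 and 2 without overlap. In bulk RNA, more transcript per cell and more cells of a kind that carries it cannot be told apart.

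**Figure D1:**
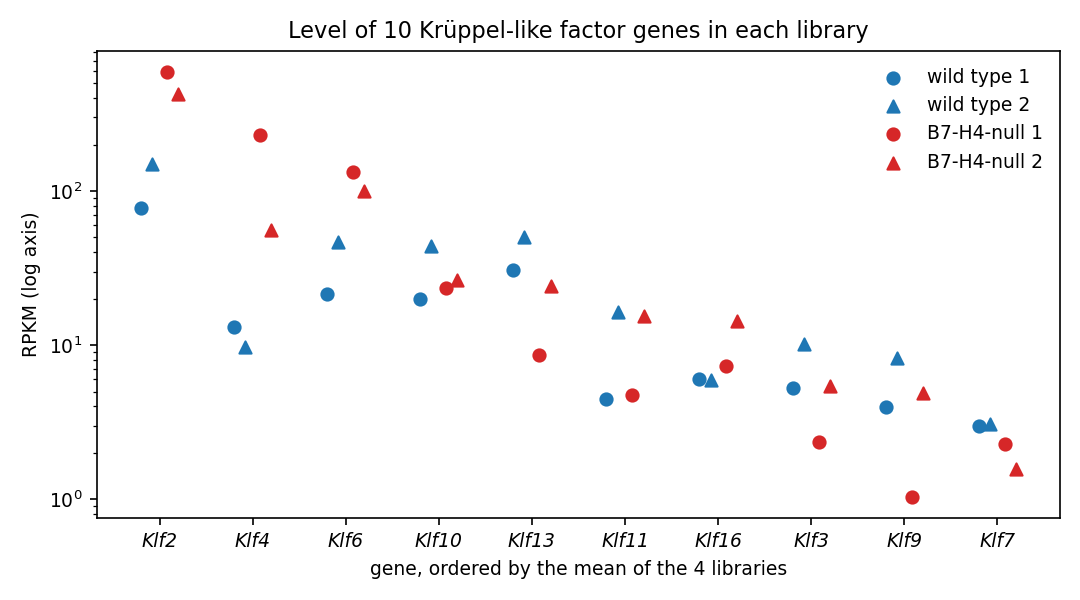
RPKM of the 10 Krüppel-like factor genes in each library on a log axis; circles are replicate 1, triangles replicate 2, blue wild type and red B7-H4-null. Both B7-H4-null points of Klf2, Klf4 and Klf6 lie above both wild-type points, and for Klf11 the replicate 1 and 2 points lie apart in both groups, at 4.48 and 16.4 RPKM in the wild-type libraries, against 4.77 and 15.4 RPKM in the null ones.

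The promoters of the members that stood furthest apart between genotypes are shown for comparison. They are the 250 bases before the RefSeq start on GRCm38.p6, 5′ to 3′ on the strand of the gene. Capitals mark GC boxes (GGGCGG) and CACCC-type boxes (CCACCC) on either strand (read as CCGCCC and GGGTGG on the other), the kinds of sequence that Krüppel-like and Sp factors bind. Klf2 lies at chr8:72318812-72319061 (+), Klf4 at chr4:55532476-55532725 (−), Klf6 at chr13:5861239-5861488 (+) and Klf13 at chr7:63938916-63939165 (−).
Klf2: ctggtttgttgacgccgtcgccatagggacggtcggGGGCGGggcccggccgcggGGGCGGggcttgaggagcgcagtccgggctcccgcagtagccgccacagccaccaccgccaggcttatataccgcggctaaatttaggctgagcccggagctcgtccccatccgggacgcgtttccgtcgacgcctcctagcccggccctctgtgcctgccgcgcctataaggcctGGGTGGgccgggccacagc
Klf4: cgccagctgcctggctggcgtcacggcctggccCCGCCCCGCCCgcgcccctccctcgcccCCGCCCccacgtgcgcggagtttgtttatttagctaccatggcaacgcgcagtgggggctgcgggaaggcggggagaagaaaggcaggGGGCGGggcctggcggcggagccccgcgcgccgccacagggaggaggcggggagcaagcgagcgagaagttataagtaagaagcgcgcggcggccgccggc
Klf6: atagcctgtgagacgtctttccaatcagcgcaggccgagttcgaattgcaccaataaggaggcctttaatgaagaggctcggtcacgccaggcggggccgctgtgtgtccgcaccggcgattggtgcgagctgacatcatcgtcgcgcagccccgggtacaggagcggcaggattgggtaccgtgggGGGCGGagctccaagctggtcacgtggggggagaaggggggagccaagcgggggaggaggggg
Klf13: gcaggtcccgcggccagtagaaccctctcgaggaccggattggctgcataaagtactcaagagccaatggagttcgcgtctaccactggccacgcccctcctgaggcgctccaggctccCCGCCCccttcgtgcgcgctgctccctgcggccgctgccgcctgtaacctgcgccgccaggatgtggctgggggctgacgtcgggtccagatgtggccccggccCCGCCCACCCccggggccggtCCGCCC

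A promoter was given in the RefSeq table for 8 of the 10 members, all but Klf10 and Klf16. A GC box was found in 7 of the 8, where 32.7% of all 32851 promoter windows of this length held at least 1. There were 2 in Klf2, 4 in Klf4, 1 in Klf6 and 3 in Klf13, with 6 in Klf3, 4 in Klf11, 1 in Klf7 and 0 in Klf9. A CCACCC box was found in 4 of the 8 (Klf2, Klf3, Klf7 and Klf13), where 28.1% of all windows held it. Adjoining GC boxes shared bases in Klf4 and Klf11, and a GC box and a CCACCC box did in Klf13. The windows were rich in GC, 71.2% in Klf2, 74.0% in Klf4, 64.8% in Klf6 and 71.6% in Klf13, against a median of 52.4% over all windows. TATAAA, TGACGTCA (the cAMP response element) and the CArG box of serum response factor were found in 0 of the 8, where 12.4%, 1.55% and 1.47% of all windows held them. GC boxes were present in members from either end of the difference, Klf4 and Klf13. No match says only that these letters are not in this window.

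**Figure D2:**
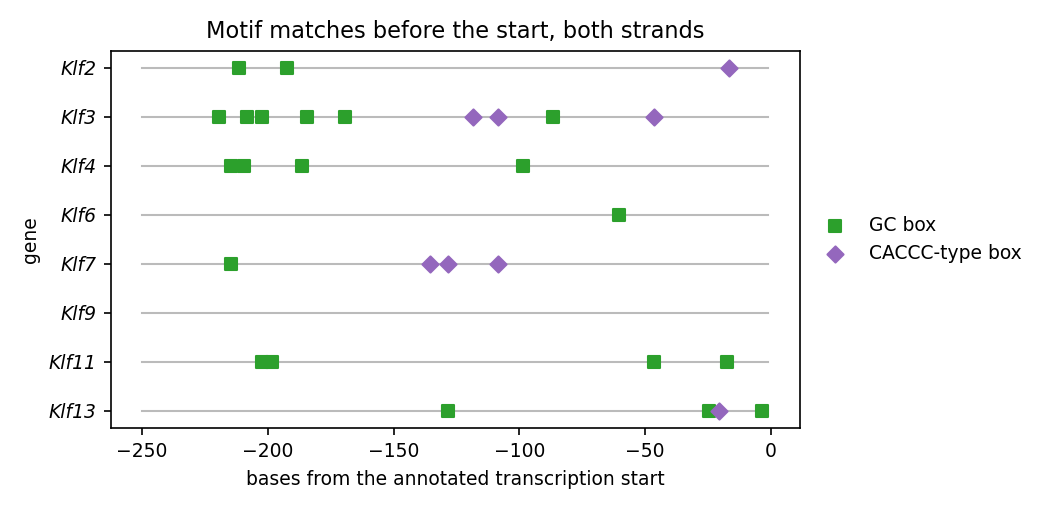
Positions of GC boxes (squares) and CACCC-type boxes (diamonds) in the 250 bases before the start of 8 members, as bases from the start. Klf2 and Klf13 carry both kinds, Klf4 and Klf6 carry GC boxes alone, and Klf9 carries neither.

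Klf2 was the most abundant member in every library. It stood at 77.9 and 149 RPKM in the wild-type libraries, against 592 and 426 RPKM in the null ones (gene ID 16598, chromosome 8, 72319062 to 72321654 on GRCm38.p6). The lowest B7-H4-null library lay 2.86-fold above the highest wild-type library. The means were 113 ± 50.3 and 509 ± 117 RPKM (SD, n = 2), 4.49-fold apart, with a log2 difference of 2.21 ± 0.376 (SE, limma adjusted p = 0.137). Klf2 ranked at the 90.6 and 95.6 percentile of the tested genes in wild type and at the 99.0 and 98.7 percentile in B7-H4-null. The difference was 1.97 without null library 1.

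Klf4 had the widest difference between genotypes among the members. It stood at 13.2 and 9.79 RPKM in the wild-type libraries, against 231 and 55.6 RPKM in the null ones (gene ID 16600, chromosome 4, 55527137 to 55532475). The genotypes did not overlap, but the B7-H4-null libraries themselves were 4.16-fold apart. Replicate 1 was the high one, as it was for the sum of the immediate early genes. The log2 difference was 3.21 ± 0.613 (SE, limma adjusted p = 0.156), or 12.5-fold in means. Without null library 1 it was 2.19 (limma adjusted p = 0.335), and without null library 2 it was 4.23 (limma adjusted p = 0.0583).

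Klf6, a ubiquitous early-response activator, stood at 21.6 and 46.8 RPKM in the wild-type libraries, against 134 and 101 RPKM in the null ones (gene ID 23849, chromosome 13, 5861489 to 5870393). The lowest B7-H4-null library lay 2.15-fold above the highest wild-type library. The difference was 1.83 ± 0.394 on the log2 scale (SE, limma adjusted p = 0.207), 3.42-fold in means. It was 1.29 without wild-type library 1 and 2.37 without wild-type library 2 (limma adjusted p = 0.055). Klf6 stood at 0.278 and 0.314 of the RPKM of Klf2 in wild type and at 0.226 and 0.236 in B7-H4-null, a ratio that was lower without overlap in B7-H4-null.

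Klf7, the remaining activator of the set and known from neurons and early T cells, was the lowest member in both groups by mean. It stood at 3.01 and 3.07 RPKM in the wild-type libraries, against 2.29 and 1.58 RPKM in the null ones (gene ID 93691, chromosome 1, 64029448 to 64122345). The groups did not overlap, yet these values rested on 41 and 41 against 29 and 23 reads. The exact 95% Poisson interval of B7-H4-null replicate 1, 1.53 to 3.29 RPKM, held both wild-type values. The log2 difference was −0.47 ± 0.271 (SE, limma adjusted p = 0.546). Such intervals cover counting error only.

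Of the 6 repressors 0 passed (limma and voom). Klf13 was lower and Klf16 higher without overlap, beside 28.0% and 16.0% of all tested genes, and 4 overlapped. Klf3, known from erythroid and B cells, had 5.28 and 10.1 RPKM in the wild-type libraries, against 2.34 and 5.43 RPKM in the null ones (gene ID 16599, chromosome 5, 64803521 to 64832901). The groups overlapped by a narrow margin, since B7-H4-null replicate 2 lay just above wild type replicate 1. The log2 difference was −0.85 ± 0.419 (SE, limma adjusted p = 0.481), and −0.38 without null library 1.

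Klf13, a Sin3-binding factor known for its action on Ccl5 in lymphocytes, was next to Klf2 in abundance in wild type, by mean, and had the lowest difference of the 10. It stood at 30.6 and 50.7 RPKM in the wild-type libraries, against 8.65 and 24.1 RPKM in the null ones (gene ID 50794, chromosome 7, 63886351 to 63938915). The groups did not overlap, with the lowest wild-type library 1.27-fold above the highest B7-H4-null library. The means, 40.6 ± 14.2 and 16.4 ± 10.9 RPKM (SD, n = 2), were 2.48-fold apart, and the log2 difference was −1.38 ± 0.484 (SE, limma adjusted p = 0.339). It was −0.69 without null library 1 and −2.07 without null library 2.

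Klf9, a glucocorticoid-responsive factor, stood at 3.96 and 8.21 RPKM in the wild-type libraries, against 1.04 and 4.87 RPKM in the null ones (gene ID 16601, chromosome 19, 23141226 to 23168129). The groups overlapped, and B7-H4-null replicate 1, with 32 reads, was the low library. The log2 difference of −0.96 ± 0.541 (SE, limma adjusted p = 0.534) was −0.20 without that library and −1.73 without null library 2.

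Klf10 and Klf11, both early genes of TGF-beta, gave no difference that the test could separate from the spread. Klf10 stood at 20.0 and 44.1 RPKM in the wild-type libraries, against 23.4 and 26.6 RPKM in the null ones (gene ID 21847, chromosome 15, 38291464 to 38300711). Both B7-H4-null values lay between the wild-type values, and the log2 difference was −0.25 ± 0.385 (SE, limma adjusted p = 0.831). It was −0.16 without null library 1 and turned to 0.31 without wild-type library 2. Klf11 stood at 4.48 and 16.4 RPKM in the wild-type libraries, against 4.77 and 15.4 RPKM in the null ones (gene ID 194655, chromosome 12, 24651371 to 24662782).

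The spread of Klf11 lay within the groups. Replicate 2 was 3.65-fold above replicate 1 in wild type and 3.24-fold in B7-H4-null, while the group means were 10.4 and 10.1 RPKM (log2 difference 0.00 ± 0.657, SE, limma adjusted p = 0.999). The difference was 0.75 without null library 1 and −0.76 without null library 2. The reads behind them, 181 and 647 in wild type and 179 and 665 in B7-H4-null, put this gap well beyond counting error, with exact 95% Poisson intervals of 3.85 to 5.18 and 15.1 to 17.7 RPKM in wild type. The same libraries were the high ones of their group for Klf3, Klf9, Klf10 and Klf13. Klf9, for example, was 2.07-fold higher in replicate 2 than in replicate 1 of wild type and 4.68-fold higher in B7-H4-null. The labels do not say that equal numbers mark a shared animal, batch or day.

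Klf16, the other Sin3-binding member, stood at 6.06 and 5.96 RPKM in the wild-type libraries, against 7.33 and 14.3 RPKM in the null ones (gene ID 118445, chromosome 10, 80567121 to 80577296). It was the repressor whose groups did not overlap in the higher direction, and here B7-H4-null replicate 2 was the high library. The log2 difference was 0.69 ± 0.337 (SE, limma adjusted p = 0.479), 1.12 without null library 1 and 0.25 without null library 2. The exact 95% Poisson intervals of B7-H4-null replicate 1, 6.30 to 8.47 RPKM, and wild type replicate 1, 5.16 to 7.06 RPKM, overlapped.

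**Figure D3:**
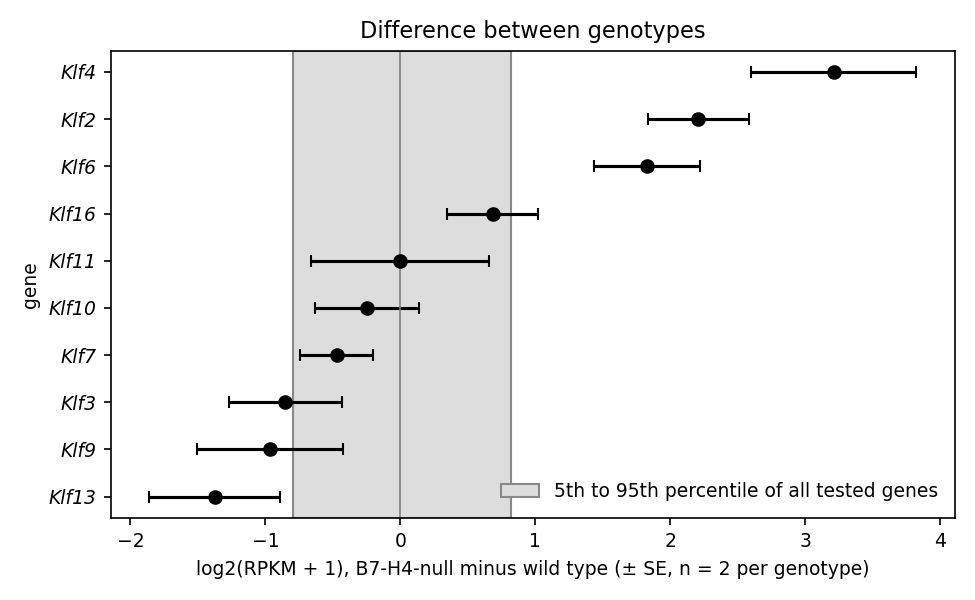
Log2 difference of each gene, B7-H4-null minus wild type, with its SE from limma (n = 2 per genotype); the grey band runs from the 5th to the 95th percentile of all tested genes, −0.79 to 0.82. Klf4, Klf2 and Klf6 lie above the band at 3.21, 2.21 and 1.83, Klf3, Klf9 and Klf13 below it at −0.85, −0.96 and −1.38, and none passed the adjusted threshold.

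The members took different shares of the family in the groups. The grouping of Klf2, Klf4 and Klf6 was made after their values were seen, so it is a description. Together the 10 genes summed to 186 and 344 RPKM in the wild-type libraries, against 1006 and 675 RPKM in the null ones. Klf2, Klf4 and Klf6 made up 60.6% and 59.7% of that sum in wild type and 95.05% and 86.3% in B7-H4-null. The other 7 genes summed to 73.4 and 138.5 RPKM in the wild-type libraries, against 49.8 and 92.3 RPKM in the null ones, so that the groups overlapped.

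Ratios within a library do not depend on how libraries are scaled to each other. Klf2 stood 2.54-fold and 2.94-fold above Klf13 in the wild-type libraries, and 68.4-fold and 17.7-fold above it in the B7-H4-null libraries. Klf4 stood at 0.43 and 0.193 of Klf13 in wild type, and 26.7-fold and 2.30-fold above it in B7-H4-null. Klf2 was 14.7-fold above Klf3 in both wild-type libraries and 253-fold and 78.4-fold above it in B7-H4-null. Each of these ratios separated the genotypes, and in each the B7-H4-null libraries lay further apart than the wild-type ones on the linear scale. The pairs set higher members against lower ones, with the values known. For Klf2 and Klf4 over Klf13, members without overlap, the separation was fixed in advance. Klf4 over Klf2 overlapped, at 0.169 and 0.066 in wild type against 0.391 and 0.130 in B7-H4-null. A ratio that separates the genotypes shows an unequal change and not which gene moved. No test was run on these ratios.

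**Figure D4:**
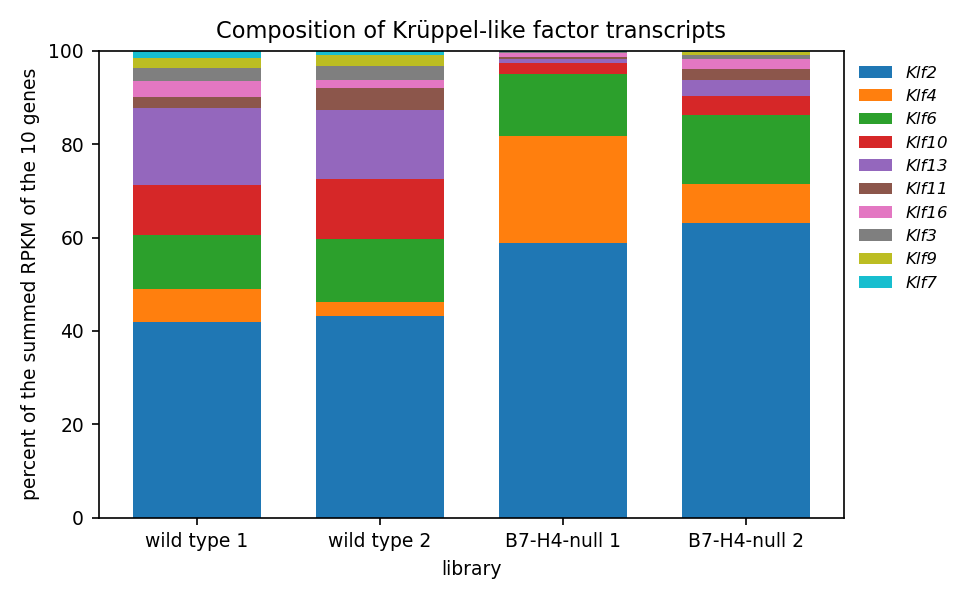
Share of each gene in the summed RPKM of the 10 genes, in percent, as a stacked bar for each library. Klf13 takes 16.5% and 14.7% in wild type and 0.86% and 3.57% in B7-H4-null, while Klf2 takes 41.9% and 43.3% in wild type and 58.8% and 63.2% in B7-H4-null.

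In wild type the order by mean was Klf2, Klf13, Klf6, Klf10, Klf4, Klf11, Klf3, Klf9, Klf16 and Klf7. Only 3 neighbours in it had libraries that did not overlap, Klf2 and Klf13, Klf10 and Klf4, and Klf16 and Klf7. In B7-H4-null the order was Klf2, Klf4, Klf6, Klf10, Klf13, Klf16, Klf11, Klf3, Klf9 and Klf7. There Klf2 stood clear of Klf4, and Klf6 of Klf10, and all other neighbours overlapped. Klf4 held place 5 in wild type and place 2 in B7-H4-null, at 11.5 and 143 RPKM by mean, and Klf13 the reverse.

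Most immediate early genes stood high in the same libraries as Klf2, Klf4 and Klf6. Of 24 tested genes of this list, 18 were higher without overlap in B7-H4-null and 0 lower, beside 16.0% and 28.0% of all tested genes, and the median log2 difference was 1.38, beside −0.09 for all tested genes. By limma 0 passed and 16 were higher at an unadjusted p under 0.05, and by voom 0 and 18. Of all tested genes, 5.05% were higher at that level by limma and 4.7% by voom. Ppp1r15a, which guides a phosphatase in the stress response, had a log2 difference of 3.16 ± 0.52, Rhob, a small GTPase, 2.09 ± 0.38 and Fosl1, an AP-1 subunit, 2.0 ± 0.335 (SE, limma adjusted p = 0.134, 0.146 and 0.134). Fosl1 was near the floor in wild type, at 0.405 and 0.413 RPKM, against 6.41 and 3.31 RPKM in B7-H4-null. It was tested only because the B7-H4-null libraries met the filter, so its place among the higher genes is no support. The part of this program in the levels of the Krüppel-like factors was not tested.

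By pattern over the 4 libraries, Atf3 of that list was among the genes nearest to Klf2, and Ppp1r15a among those nearest to Klf4. The genes nearest to Klf6 were not on that list. Neighbours were found from the same 4 values that the differences rest on, so this is a description. Likeness was the Euclidean distance in log2(RPKM + 1), centred per gene, among 8001 genes with a mean of at least 5 RPKM. Krüppel-like factors and genes known only by a model or clone name were left out of these. Members were thus not compared with each other, and one member may lie nearer to another than the genes named here. With 4 libraries many genes lie close by. Nearest to Klf2 were Atf3, a stress-induced factor, at 0.405, Tcf19 at 0.434 and Dusp6, a phosphatase of ERK, at 0.484. Atf3 stood at 3.99 and 6.67 RPKM in the wild-type libraries, against 34.3 and 17.8 RPKM in the null ones. Nearest to Klf4 were Rtn2 at 0.414, Cd69, an early activation antigen, at 0.504 and Ppp1r15a at 0.643. Rtn2 was near the floor in wild type, at 0.243 and 0.398 RPKM, against 26.1 and 5.39 RPKM in B7-H4-null. It met the filters through the B7-H4-null libraries alone. Cd69 stood at 16.7 and 13.7 RPKM in the wild-type libraries, against 198 and 65.6 RPKM in the null ones. Nearest to Klf6 were Epha7 at 0.246, Nlrp3, the inflammasome sensor, at 0.372 and Tcf19 at 0.376. Nlrp3 stood at 2.87 and 8.21 RPKM in the wild-type libraries, against 28.2 and 14.6 RPKM in the null ones.

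**Figure D5:**
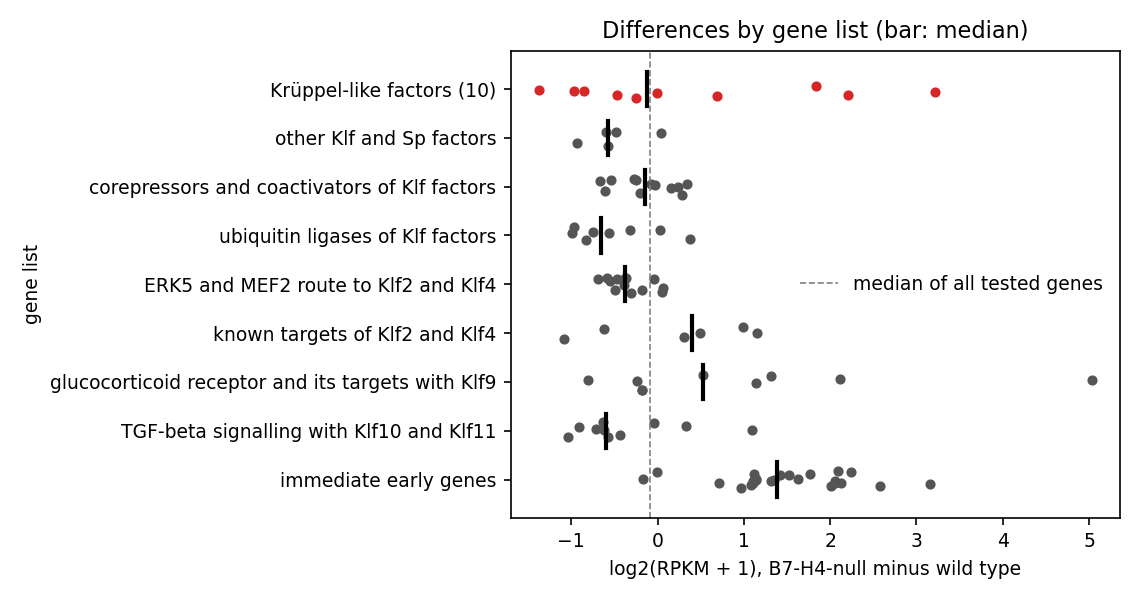
Log2 difference of each tested gene, B7-H4-null minus wild type, by list; each point is a gene, the bar is the list's median and the dashed line the median of all tested genes, −0.09. The 10 Krüppel-like factors spread from −1.38 to 3.21, and the medians of the 9 lists drawn, which leave out the cell type and sort markers, run from −0.66 for the ubiquitin ligases to 1.38 for the immediate early genes.

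The other Krüppel-like and Sp factors, which bind much the same sequences, were mostly scarce or lower in B7-H4-null. Of 16 genes, 5 were tested and 10 stayed below 1 RPKM in every library. Klf12, Klf14, Sp5 and Sp8 had 0 reads throughout. Of the 5 tested, 0 passed by limma or voom. At an unadjusted p under 0.05, 1 was lower by limma and 2 by voom, beside 7.2% and 7.99% of all tested genes. Lower without overlap were 4 (Sp1, Sp2, Sp3 and Sp4), beside 28.0% of all tested genes, and 1 overlapped (Klf5). Sp1 stood at 17.4 and 20.0 RPKM in the wild-type libraries, against 6.40 and 13.2 RPKM in the null ones, a log2 difference of −0.94 ± 0.353 (SE, limma adjusted p = 0.368) that was −0.47 without null library 1. Sp3, the most abundant of them, stood at 31.7 and 37.8 RPKM and at 22.0 and 23.9 RPKM (limma adjusted p = 0.417). Sp2 and Sp4 had log2 differences of −0.60 and −0.48, and that of Sp2 was −0.38 without null library 1.

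The route that induces Klf2 and Klf4 in endothelium and T cells runs from the kinases MEKK2 and MEKK3 through MEK5 and ERK5 to the MEF2 factors, with the CCM proteins as a brake. The list drawn up for it also held Foxo1, Hdac5 and Hdac7, and it pooled the brake with the rest. Of the 13 genes listed, all tested, 0 passed by limma or voom. At an unadjusted p under 0.05, 1 was lower by limma and 2 by voom, beside 7.2% and 7.99% of all tested genes. Higher without overlap were 0 and lower 7, beside 16.0% and 28.0% of all tested genes. The median log2 difference was −0.38, beside −0.09 for all tested genes. Map3k2, which encodes MEKK2, stood at 5.57 and 6.69 RPKM in the wild-type libraries, against 3.30 and 3.50 RPKM in the null ones (log2 difference −0.69 ± 0.252, SE, limma adjusted p = 0.358). Mapk7, which encodes ERK5, stood at 15.8 and 16.6 RPKM and at 10.6 and 12 RPKM (limma adjusted p = 0.479). Map3k3 and Ccm2 had log2 differences of −0.55 and −0.58.

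Of 9 ubiquitin ligases known to act on Krüppel-like factors, 8 were tested and 0 passed by limma or voom. Lower without overlap were 5 and higher 0, beside 28.0% and 16.0% of all tested genes. The median was −0.66, beside −0.09 for all tested genes. Siah1a, a ligase of Klf10, stood at 5.04 and 6.62 RPKM in the wild-type libraries, against 2.01 and 2.84 RPKM in the null ones (log2 difference −0.996 ± 0.28, SE, limma adjusted p = 0.295). Smurf1 and Wwp1, both ligases of Klf2, had log2 differences of −0.75 ± 0.272 and −0.56 ± 0.244 (SE, limma adjusted p = 0.358 and 0.422). Vhl, known to act on Klf4, had −0.83 (limma adjusted p = 0.32). At an unadjusted p under 0.05, 3 of the 8 were lower by limma (Siah1a, Vhl and Smurf1) and 4 by voom, beside 7.2% and 7.99% of all tested genes.

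The cofactors showed smaller differences. Of 12 corepressors and coactivators, all tested, 0 passed by limma or voom. Higher without overlap was 1 and lower were 5, beside 16.0% and 28.0% of all tested genes, and 6 overlapped. The median was −0.14, beside −0.09 for all tested genes. The acetyltransferases Ep300, Crebbp and Kat2b had log2 differences of −0.67, −0.54 and −0.61, and Kat2a had 0.34 (limma adjusted p = 0.426, 0.482, 0.448 and 0.652). At an unadjusted p under 0.05, limma counted 0 of them and voom 1, lower, where voom counted 7.99% of all tested genes lower.

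Genes known as targets of Klf2 and Klf4 went both ways. Of 11, 6 were tested and 0 passed by limma or voom. At an unadjusted p under 0.05 limma counted 0 and voom 2 higher, where voom counted 4.7% of all tested genes higher. Higher without overlap were 2, beside 16.0% of all tested genes, and 4 overlapped. The other 5 stayed below 1 RPKM in every library, among them S1pr1, the sphingosine phosphate receptor that Klf2 controls in T cells. Cdkn1a, the cell cycle inhibitor p21, stood at 50.1 and 38.9 RPKM in the wild-type libraries, against 174 and 56.6 RPKM in the null ones (log2 difference 1.16 ± 0.508, SE, limma adjusted p = 0.426), and the difference was 0.35 without null library 1. Thbd, encoding thrombomodulin, stood at 4.91 and 5.88 RPKM and at 9.39 and 6.72 RPKM (limma adjusted p = 0.53), with a log2 difference of 0.49 that was 0.28 without null library 1. Itgb7 had a log2 difference of 0.99 and Cd14 of −1.08, with groups that overlapped. Without null library 1 they were 1.48 and −0.41.

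Klf9 is a target of the glucocorticoid receptor. Its list of 9 tested genes had 3 higher and 1 lower without overlap, beside 16.0% and 28.0% of all tested genes. The median was 0.52, beside −0.09 for all tested genes. The receptor itself, Nr3c1, stood at 13.1 and 15.8 RPKM in the wild-type libraries, against 6.81 and 8.90 RPKM in the null ones (log2 difference −0.81 ± 0.263, SE, limma adjusted p = 0.329). Of the list only the metallothionein Mt2 passed, at a log2 difference of 5.03 (limma adjusted p = 0.0219), with Mt1 at 1.32 and Dusp1 at 1.14 (limma adjusted p = 0.207 and 0.336). The call of Mt2 was lost without null library 1 (limma adjusted p = 0.222) and without null library 2 (0.0609).

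Klf10 and Klf11 answer TGF-beta. Of 11 genes of that pathway, 10 were tested and 0 passed by limma or voom. At an unadjusted p under 0.05 each counted 4 lower, beside 7.2% (limma) and 7.99% (voom) of all tested genes. Lower without overlap were 6 and higher 0, beside 28.0% and 16.0% of all tested genes. The median was −0.60, beside −0.09 for all tested genes. Tgfbr1, a receptor chain, stood at 14.4 and 14.5 RPKM in the wild-type libraries, against 5.08 and 10.2 RPKM in the null ones (log2 difference −0.91 ± 0.336, SE, limma adjusted p = 0.363), and the difference was −0.47 without null library 1. Smad4, the shared signal carrier, and the inhibitors Ski and Skil had log2 differences of −0.63, −1.04 and −0.72 (limma adjusted p = 0.402, 0.293 and 0.378).

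Markers of other cells that carry Krüppel-like factors were mostly near the floor. The 6 endothelial markers summed to 0.296 and 1.48 RPKM in the wild-type libraries, against 0.847 and 0.748 RPKM in the null ones, and all 6 stayed below 1 RPKM. Of 8 T and NK cell markers, 7 stayed below 1 RPKM in every library, Cd3e at 0 in 3 of them, and the other, Nkg7, stood at 21.0 to 39.2 RPKM with groups that overlapped. Of 6 B cell markers 5 stayed below 1 RPKM, Pax5 at 0 in all 4 libraries. The other, Cd79b, had 35.4 and 45.5 RPKM in wild-type libraries and was higher without overlap in B7-H4-null, at 58.7 and 60.7 RPKM (limma adjusted p = 0.444), and its part in the levels of the members was not tested. The 6 erythroid markers of the table summed to 1.19 to 3.56 RPKM over the libraries. The sum of 6 megakaryocyte markers was highest in B7-H4-null replicate 1, at 17.1 RPKM, and 5.06 to 6.84 RPKM elsewhere. Itga2b alone, whose groups overlapped, gave 15.6 RPKM of that highest sum, and Gp9 and Gp1ba were lower without overlap in B7-H4-null. The sum of 7 stromal markers was highest in B7-H4-null replicate 1 too, at 22.0 RPKM, and 9.71 to 15.7 RPKM elsewhere. Pdgfrb alone, whose groups overlapped, gave 19.8 RPKM of it. Acta2 was lower without overlap in B7-H4-null, at 2.33 and 3.39 against 0.895 and 1.14 RPKM. The 7 macrophage markers summed to 28.5 and 18.1 RPKM in the wild-type libraries, against 31.3 and 17.1 RPKM in the null ones, most of it Adgre1.

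Of the markers of neutrophils and of monocytes, 0 passed by limma or voom. The 9 neutrophil markers were all lower without overlap in B7-H4-null, beside 28.0% of all tested genes, with a median log2 difference of −1.75. At an unadjusted p under 0.05, 8 of them were lower by limma and 7 by voom, beside 7.2% and 7.99% of all tested genes. Their sums were 8980 and 4198 RPKM in the wild-type libraries, against 3042 and 2806 RPKM in the null ones. Camp and Ngp made up most of each sum, while Ly6g and Cxcr2 reached no more than 9.49 and 4.93 RPKM in any library. The 6 monocyte markers summed to 923 and 1218 RPKM in the wild-type libraries, against 1318 and 1734 RPKM in the null ones, most of it Ly6c2. Higher without overlap were 2 of them, beside 16.0% of all tested genes, and 4 overlapped, while 2 had a difference below 0. At an unadjusted p under 0.05, 1 was higher by limma and by voom, beside 5.05% and 4.7% of all tested genes. By limma it was Cx3cr1, which stood near the floor, at 0.0264 and 0.081 RPKM in wild type, against 1.02 and 1.86 RPKM in B7-H4-null, the only group that met the filter. The part of either in the levels of Klf2, Klf4, Klf6 and Klf13 was not tested.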

How the data were processed

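RNA-seq libraries (TruSeq RNA version 2, HiSeq2500) of 2 wild-type and 2 B7-H4-null samples were used. Per the submitters' processing notes, reads were aligned with TopHat2 2.0.12 to GRCm38. The sources used here do not give the program that counted the reads, its annotation or its strand setting. The authors deposited RPKM values, a unit taken from the values. Of the 14608 genes above 0 in every library, 14606 gave whole reads within 0.001 read, and these reads gave the totals and counting intervals. The kit does not mark strand, so reads of genes that overlap Klf3, Klf7 and Klf13 on the opposite strand cannot be told apart from theirs. Klf3, Klf7 and Klf9 also overlap genes on their own strand, which strand could not separate. Of the overlapping genes the expression table held only Mir1192 (at Klf9, up to 0.764 RPKM) and E030018B13Rik (at Klf13, up to 0.0992 RPKM).

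Symbols came from RefSeq (GRCm38.p6) for 25275 IDs and from GENCODE for 18. Genes that reached 1 RPKM in 2 or more libraries were tested with limma 3.58.1 in R 4.3.3 on log2(RPKM + 1), a scale that understates the change of low genes, with a mean-variance trend, two-sided, and Benjamini-Hochberg adjustment at 0.05. The test was checked on simulated data. The members and the 19 lists (179 genes, 1 not in the table) were chosen with earlier results of these data known. The genes named are the members, up to 4 genes per list with the smallest p and the genes of the sort and lineage checks. The 3 genes outside the family nearest in pattern to Klf2, Klf4 and Klf6 are named too. Single low or absent markers, the list members counted one by one and genes named to show what a list or sum holds were named after their values were seen. Alternatives changed the pseudocount, filter, scaling, trend and values tested, added a replicate block or left out a library.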

Additional observations from a re-analysis of the deposited data

How the results depend on the processing

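The number of members called was 0 in all 12 alternatives. The lowest adjusted p of a member in any of them was 0.0524 (limma), for Klf2 without wild type replicate 2. Of 606 values of 51 named genes under the alternatives, 592 kept their direction and side of the threshold, 3 passed newly, 3 no longer passed and 8 changed sign. Klf11 changed sign, to 0.0033 with a pseudocount of 0.1, 0.0877 after median-ratio scaling, 0.0872 after quantile normalization and 0.0184 with voom, and ran from −0.83 to 0.83 when a library was left out. Klf10 ran from −0.80 to 0.31 and Kit from −1.16 to 0.45 when a library was left out. The cause was not tested. In these fits a lone library is assumed to vary like the other group. Over all genes limma called 12. It called 0 with no filter (1887 at an unadjusted p under 0.05), 21 with the replicate block and 0 to 56 when a library was left out. These were 56 and 29 without wild type replicates 1 and 2, and 0 without either B7-H4-null replicate (937 and 1476 at an unadjusted p under 0.05), and voom called 16. Same-numbered libraries deviated together over the tested genes (r = 0.247), but with 2 pairs and no label to say so the pairing is not established. With the block the lowest adjusted p of a member was 0.0655, for Klf4, and Ppp1r15a passed. Members lower without overlap counted 2, and 1 with the filter at 5 RPKM, which left 8 members tested, and 1 library fewer gave 2 to 6. Depth limits Klf7, read 23 to 41 times per library.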
